A study of Mus musculus with 49 samples.

Results

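A set of 9 surface marker genes used to sort or grade blood stem and progenitor cells was followed through normal marrow populations and MLL-AF9 leukaemias. They are Slamf1 (CD150), Cd48, Cd34, Kit (c-Kit, CD117), Ly6a (Sca-1), Procr (EPCR, CD201), Fcgr3 (CD16), Fcgr2b (CD32) and Itgam (CD11b), chosen by symbol, and all 9 were found among the 38253 genes of the deposited table. RNA sequencing had been done on 30 normal and 19 leukaemia samples of C57BL/6J mice, all given as wild type in the labels. The age given for all is 6 to 12 weeks, which for leukaemic mice leaves out the time from transplantation to collection. The normal samples were sorted marrow populations. Stem cells came as 5 long-term (LT-HSC) and 5 short-term (ST-HSC) samples, and 6 samples held multipotent progenitors (MPP). Of the committed cells there were 5 samples of common myeloid progenitors (CMP), 5 of progenitors of granulocytes and macrophages (GMP) and 4 of progenitors of megakaryocytes and erythroid cells (MEP). The leukaemias were started by retroviral transfer of MLL-AF9, a fusion oncogene of human acute leukaemia, together with GFP, into sorted normal cells that were then transplanted into sublethally irradiated mice. Each leukaemia group carries the name of its starting cell: 3 samples of STHSC:MA9, 6 of MPP:MA9, 4 of CMP:MA9 and 6 of GMP:MA9. No leukaemia sample begun in LT-HSC or MEP was analysed here. The study states that leukaemia cells were collected from the spleen as GFP+ cells, without a gate on these markers, whereas the labels give bone marrow for every sample. Per the study, recipients were sacrificed when their health declined, after times that differed with the starting cell. Tissue, sorting gate, age at collection, transduction and transplantation therefore cannot be told apart from leukaemia in any comparison with normal cells.

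Surface markers place a blood cell on the path from stem cell to mature cell. Kit, the receptor for stem cell factor, and Sca-1 together mark the most immature fraction once cells with lineage antigens are removed. CD150 is kept on stem cells and lost by most multipotent progenitors, CD34 is low on the most dormant adult mouse stem cells and rises as they are activated, and the Fc gamma receptors CD16 and CD32 mark commitment to granulocytes and macrophages. CD48, the ligand of CD244, and EPCR, the receptor of protein C, are used in other schemes as a negative and a positive stem cell marker, and CD11b is the alpha chain of the complement receptor of mature myeloid cells. In the study's methods LT-HSC were lineage-negative Sca-1+ c-Kit+ CD150+ with low or no CD34, ST-HSC differed from them by CD34, and MPP from ST-HSC by lack of CD150. CMP and GMP were Sca-1- c-Kit+ CD150- CD34+ and were parted by low and high Fc gamma receptor. The methods list no marker profile for MEP, and CD11b was 1 of the antigens of the lineage mix. Cd48 and Procr stood in no gate. A gate acts on surface protein, so a transcript difference at a gated marker measures how far the transcript follows the sort.

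Of the 9 genes, 5 lie on chromosome 1 of NCBIM37 (mm9). Fcgr2b (172890689 to 172906678) and Fcgr3 (172981300 to 172995066), both on the minus strand, lie in the Fc receptor cluster, and Cd48 (173612140 to 173635389) and Slamf1 (173697258 to 173731315), on the plus strand, are neighbours in the SLAM cluster. Cd34 is at 196765015 to 196787486. Kit is on chromosome 5 (75970941 to 76052747), Itgam on chromosome 7 (135206154 to 135271674), Ly6a on chromosome 15 (74825308 to 74828064) and Procr on chromosome 2 (155576853 to 155581207). Of the 31-base windows in the exons of Fcgr3, 14.27% also occur in another gene, and the corresponding shares were 14.29% for Fcgr2b and 17.36% for Ly6a. Values of these 3 genes therefore depend in part on how reads were divided between copies. The longest stretch that Fcgr3 and Fcgr2b share is shown because an antibody to both receptors and a read from this stretch alike cannot part them. Its 129 coding bases fall in 2 exons of each gene, at 172987822 to 172987923 and 172984298 to 172984324 in Fcgr3 and at 172898111 to 172898212 and 172896805 to 172896831 in Fcgr2b (chromosome 1, minus strand, NCBIM37).
Fcgr3 and Fcgr2b: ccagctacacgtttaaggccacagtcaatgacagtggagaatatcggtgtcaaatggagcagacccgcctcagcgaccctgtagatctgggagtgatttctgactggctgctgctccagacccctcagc

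The bases before the start of transcription are shown for the 4 genes on which the leukaemia results turn, Kit, Itgam, Fcgr3 and Fcgr2b. They are the 250 upstream bases of RefSeq windows on GRCm38.p6, another build than that of the positions above, and are written 5′ to 3′ on the strand of the gene. A window was found for 8 of the 9 genes, and none for Ly6a. Fcgr3 and Kit each had 2 windows, for 2 starts, and only the first listed of each is shown and described. Both strands were searched for GAGGAA (core of sites of the myeloid factor PU.1), AGATAA (sites of the erythroid factor Gata1 and its relatives), TGTGGT (sites of RUNX factors) and TTGCNNAA (sites of C/EBP factors), which occur in 23.3%, 9.99%, 14% and 9.56% of 32851 such windows. Capitals mark the matches.
Itgam, chr7:128062390-128062639 (+): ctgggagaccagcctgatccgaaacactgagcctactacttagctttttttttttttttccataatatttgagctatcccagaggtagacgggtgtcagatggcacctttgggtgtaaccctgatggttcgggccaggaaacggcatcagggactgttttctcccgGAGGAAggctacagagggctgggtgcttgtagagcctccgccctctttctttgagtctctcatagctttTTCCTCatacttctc
Fcgr3, chr1:171059404-171059653 (-): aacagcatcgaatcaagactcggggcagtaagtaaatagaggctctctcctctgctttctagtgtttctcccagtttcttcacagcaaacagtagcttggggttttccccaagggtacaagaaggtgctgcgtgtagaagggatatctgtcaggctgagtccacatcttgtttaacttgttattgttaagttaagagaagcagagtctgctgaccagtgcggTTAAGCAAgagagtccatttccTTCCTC
Fcgr2b, chr1:170976072-170976321 (-): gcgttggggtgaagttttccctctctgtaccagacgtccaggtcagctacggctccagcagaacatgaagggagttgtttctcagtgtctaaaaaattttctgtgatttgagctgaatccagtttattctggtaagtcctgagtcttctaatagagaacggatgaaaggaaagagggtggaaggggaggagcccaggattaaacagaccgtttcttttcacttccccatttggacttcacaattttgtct
Kit, chr5:75574737-75574986 (+): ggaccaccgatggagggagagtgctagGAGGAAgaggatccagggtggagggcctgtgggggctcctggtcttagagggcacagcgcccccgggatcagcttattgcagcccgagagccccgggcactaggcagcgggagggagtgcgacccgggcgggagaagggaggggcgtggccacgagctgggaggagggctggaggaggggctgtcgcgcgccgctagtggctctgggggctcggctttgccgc
Itgam held 2 PU.1 cores, at 84 to 79 and 15 to 10 bases before the start. Fcgr3 held 1 PU.1 core that ended at the last base before the start and 1 C/EBP match at 28 to 21 bases. Kit held 1 PU.1 core at 223 to 218 bases, Cd48 1 RUNX match and Procr 1 C/EBP match. The windows of Slamf1, Cd34 and Fcgr2b held none of these letters, which says nothing of more distant sites.

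Between 15282 and 17852 genes per sample had an FPKM (fragments scaled by transcript length and library size) above 0, and estimated depth relative to the median sample spanned 0.489 to 1.54. There were 4 normal libraries that stood apart. The summed FPKM of 9 granulocyte genes, with S100a8 and S100a9 among them, was 22, 40.9 and 38.9 in LT-HSC replicates 1 to 3 but 74854 and 30218 in replicates 4 and 5. In ST-HSC the same sum was 52.5, 114 and 1215 in replicates 1 to 3 and 42585 and 8782 in replicates 4 and 5. Erythroid genes were also high in the LT-HSC pair, with sums of 61082 and 33680 in LT-HSC replicates 4 and 5 against 937 to 3851 in replicates 1 to 3. In ST-HSC they were 33182 and 5389 in replicates 4 and 5 against 332, 5232 and 220 in replicates 1 to 3. B cell genes summed to 152 and 72.8 in LT-HSC replicates 4 and 5 and to 92.8 and 35.6 in ST-HSC replicates 4 and 5, against 15.2 to 27.0 and 15.9 to 23.9 in replicates 1 to 3 of these groups. They also stood at 82.4 and 109 in MEP replicates 3 and 4, against 11.3 and 11.1 in MEP replicates 1 and 2 and 16.0 to 30.1 in MPP, CMP and GMP. Summed FPKM of 7 stem cell genes, 2 of them markers described here, ran from 149.8 to 660 in LT-HSC, ST-HSC and MPP and from 9.52 to 129 in CMP, GMP and MEP, and that of 5 GMP genes, with Mpo and Elane among them, from 17316 to 25937 in GMP and up to 5923 in the other normal groups. MEP had erythroid sums of 3288 to 5630, but their megakaryocyte sums, 21.5 to 52.5, were below those of CMP, 189 to 287. Results on Itgam and the Fc receptors are also given without these 4 libraries where a call was made or lost or a called change moved by more than its standard error, a choice made after seeing the data. The same is given for Cd48 and Procr between LT-HSC and ST-HSC. In bulk samples, fewer cells of a type and less RNA per cell cannot be told apart.

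**Figure D1:**
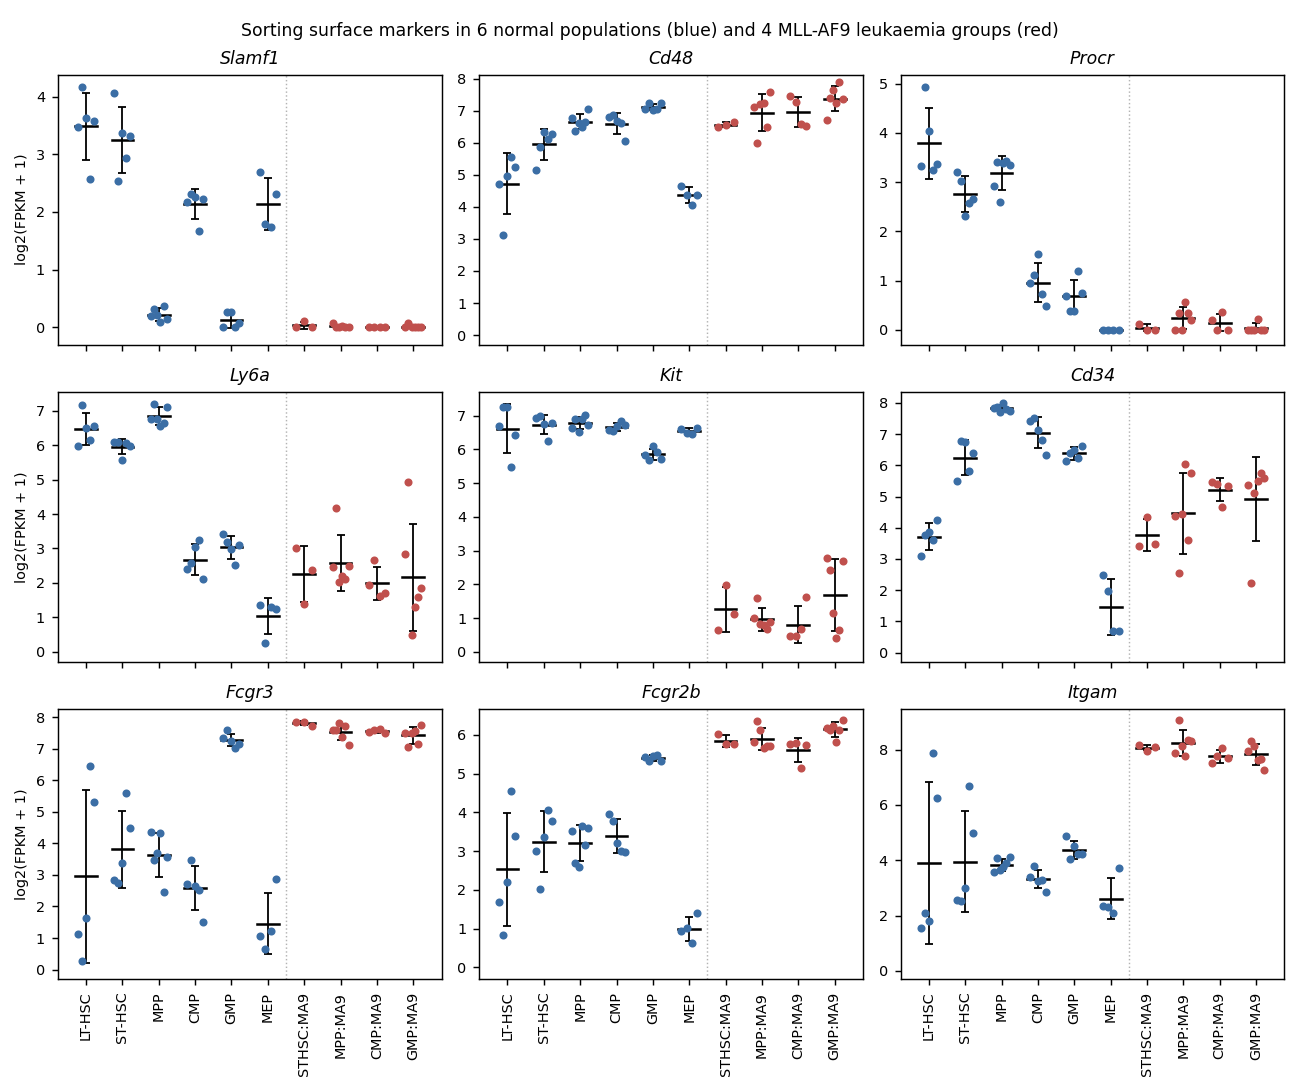
Each panel shows 1 gene as log2(FPKM + 1) on the vertical axis, with a point per sample, the group mean as a bar and the SD as whiskers, for 6 normal populations (blue) and 4 leukaemia groups (red). Kit lies between 0.33 and 5.94 FPKM in the 19 leukaemias and between 43.18 and 151.6 FPKM in the 30 normal samples.

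The comparisons of normal populations asked how closely transcripts follow the gates. Tests were made with limma on log2(FPKM + 1) over all genes, and genes with an adjusted p under 0.05 and a log2 change above 1 in size were called. Along the path from LT-HSC to GMP the gate that parts 2 neighbouring populations was matched by a called transcript each time. Cd34 was called between LT-HSC and ST-HSC, Slamf1 between ST-HSC and MPP, Ly6a between MPP and CMP, and both Fc receptors between CMP and GMP. Each of these steps also had a called marker on which the gates did not differ. The median log2 change of all genes was -0.12 for LT-HSC minus ST-HSC, 0.20 for CMP minus GMP and 0.14 for CMP minus MEP, and changes in these comparisons stand relative to those shifts.

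Cd34 encodes a sialomucin of progenitors and vessels. Its values were 7.53, 12.61, 13.55, 11.15 and 18.11 FPKM in LT-HSC and 44.11, 107.65, 106.3, 55.92 and 83.9 FPKM in ST-HSC, so the groups did not overlap. The difference was -2.53 ± 0.29 (SE) on the log2 scale (adjusted p = 7.63e-06). MPP held more, with a lowest, median and highest value of 206.6, 226.8 and 252.6 FPKM, all above ST-HSC (ST-HSC minus MPP -1.58 ± 0.28, adjusted p = 0.000201). CMP stood at 172.02, 181.71, 139.95, 112.03 and 78.65 FPKM and GMP at 70.04, 83.31, 88.9, 73.69 and 98.3 FPKM, with overlapping ranges and a log2 difference of 0.67 (adjusted p = 0.0709). MEP had the lowest values, 4.55, 2.96, 0.62 and 0.63 FPKM. CMP exceeded MEP in Cd34 by 5.58 ± 0.31 and GMP exceeded MEP by 4.91 ± 0.31 (adjusted p = 3.23e-13 and 5.04e-13). Cd34 thus differed among populations that share a CD34+ gate, and MPP were above CMP without overlap (0.79 on the log2 scale, adjusted p = 0.0544).

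Slamf1 encodes CD150, a self-binding receptor of the SLAM family. It stood at 10.16, 17.03, 11.36, 4.94 and 10.95 FPKM in LT-HSC and at 15.8, 4.79, 9.31, 6.64 and 8.97 FPKM in ST-HSC, both gated CD150+, and the groups overlapped (0.24, adjusted p = 0.613). In MPP it ran from 0.07 to 0.3 FPKM, below every ST-HSC sample (ST-HSC minus MPP 3.02 ± 0.23, adjusted p = 7.27e-10). CMP were gated CD150- but held 3.51, 3.99, 3.8, 2.19 and 3.7 FPKM. GMP, with the same CD150 gate, held 0, 0.2, 0.2, 0 and 0.05 FPKM. No sample of CMP overlapped GMP or MPP, and the difference was 2.01 ± 0.25 for CMP minus GMP and -1.91 ± 0.23 for MPP minus CMP (adjusted p = 2.68e-07 and 1.9e-06). MEP, at 5.44, 2.46, 2.34 and 3.96 FPKM, overlapped CMP and lay above GMP (GMP minus MEP -2.01 ± 0.26, adjusted p = 2.4e-07). Slamf1 thus differed between populations that share a CD150- gate.

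Cd48, the neighbour of Slamf1 that no gate used, ran the other way among the immature cells. It was 25.11, 7.78, 30.46, 45.78 and 37.21 FPKM in LT-HSC and 34.6, 57.78, 79.21, 68.31 and 76.62 FPKM in ST-HSC, where 2 LT-HSC samples overlapped ST-HSC (LT-HSC minus ST-HSC -1.23 ± 0.28, adjusted p = 0.00569). Without LT-HSC replicate 2, the lowest, this was -0.83 and under the fold threshold, and in a fit of LT-HSC and ST-HSC alone the adjusted p was 0.232. Without replicates 4 and 5 of both groups it was -1.51 ± 0.32 and called (adjusted p = 0.00303). MPP, CMP and GMP had means of 101 ± 17.6 (SD, n = 6), 97.1 ± 19.4 (n = 5) and 138 ± 10.4 FPKM (n = 5), with MPP and CMP overlapping. MEP stood at 24.17, 19.44, 15.65 and 19.79 FPKM, so that CMP exceeded MEP by 2.23 ± 0.30 and GMP exceeded MEP by 2.75 ± 0.30 with no overlap (adjusted p = 1.52e-06 and 1.18e-08). Cd48 was thus low at both ends, in LT-HSC and in MEP, whose ranges overlapped.

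Ly6a encodes Sca-1, a GPI-anchored protein of the Ly6 family. In LT-HSC, ST-HSC and MPP, gated Sca-1+, it ran from 47.07 to 147.27 FPKM with a median of 91.09, and in CMP and GMP, gated Sca-1-, together with MEP from 0.19 to 9.74 FPKM with a median of 4.84. The sets did not overlap, and the step from MPP to CMP measured 4.17 ± 0.22 (adjusted p = 2.39e-13). In the latter set, MEP stood at 1.58, 0.19, 1.45 and 1.37 FPKM, below every CMP and GMP sample, which exceeded MEP by 1.64 ± 0.24 and 2.00 ± 0.24 (adjusted p = 7.49e-06 and 9.6e-08). Among the Sca-1+ cells the difference of ST-HSC from MPP, -0.89 ± 0.22 (adjusted p = 0.00553), was under the fold threshold.

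Procr, used in no gate, split the populations at the same place as Ly6a. It ran from 3.97 to 29.64 FPKM in LT-HSC, ST-HSC and MPP and from 0 to 1.9 FPKM in CMP, GMP and MEP, and was listed at 0 in all 4 MEP. The difference of CMP from MEP had an adjusted p of 0.00879 but was under the fold threshold, which it passed without CMP replicate 4 or 5 and with a pseudocount of 0.1 (3.31, adjusted p = 1.41e-07). MPP were above CMP by 2.22 ± 0.25 (adjusted p = 4.6e-07). LT-HSC, at 9.02, 29.64, 15.46, 8.54 and 9.36 FPKM, lay above every ST-HSC sample, at 8.29, 7.12, 3.97, 4.98 and 5.34 FPKM. That difference, 1.03 ± 0.26 (adjusted p = 0.0111), was just over the fold threshold, and it was 0.74 without LT-HSC replicate 2, 0.96 without LT-HSC replicate 3, 0.92 without ST-HSC replicate 3 and 0.98 without ST-HSC replicate 4. With a pseudocount of 0.1 its adjusted p was 0.0512, and in a fit of LT-HSC and ST-HSC alone 0.206. Without replicates 4 and 5 of both groups it was 1.25 ± 0.33 and called (adjusted p = 0.0143).

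Kit was required in every gate that the methods list. Its means were 107 ± 46 FPKM in LT-HSC (SD, n = 5), 108 ± 19.5 in ST-HSC, 110 ± 13.8 in MPP (n = 6), 102 ± 8.38 in CMP and 92.7 ± 5.68 in MEP (n = 4), and neighbouring ranges overlapped. GMP stood at 56.17, 50.64, 67.42, 60.31 and 51.55 FPKM, below every CMP and MEP sample. CMP minus GMP was 0.82 ± 0.21 (adjusted p = 0.00272) and GMP minus MEP -0.69 (adjusted p = 0.0112), both under the fold threshold. The lowest Kit of the stem cell samples, 43.18 FPKM, was in LT-HSC replicate 4, the library with the highest granulocyte sum.

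Fcgr3 and Fcgr2b encode the activating and the inhibitory low-affinity receptor for IgG. GMP, gated on them, held 161.95, 189.54, 151.65, 129.61 and 141.92 FPKM of Fcgr3, and CMP held 5.61, 9.98, 5.27, 4.77 and 1.87 FPKM. Fcgr2b was 41.93, 38.82, 42.94, 43.26 and 39.06 FPKM in GMP and 14.41, 12.72, 8.33, 7.02 and 6.94 FPKM in CMP. Neither gene overlapped between the groups. CMP minus GMP was -4.70 ± 0.79 for Fcgr3 and -2.01 ± 0.44 for Fcgr2b (adjusted p = 2.91e-05 and 0.000647) on the log2 scale. MEP had the lowest mean of both, 2.32 ± 2.65 FPKM for Fcgr3 and 1.03 ± 0.448 FPKM for Fcgr2b (SD, n = 4), and GMP exceeded MEP by 5.82 ± 0.84 and 4.40 ± 0.47 (adjusted p = 1.38e-06 and 7.43e-09). CMP exceeded MEP in Fcgr2b by 2.39 ± 0.47 (adjusted p = 0.000239). For Fcgr3 that difference was 1.12 ± 0.84 (adjusted p = 0.328) with all libraries, and the same 1.12 passed without the 4 libraries rich in granulocyte transcripts (adjusted p = 0.0295). The difference of MPP from CMP in Fcgr3 was likewise 1.07 ± 0.76 (adjusted p = 0.384) with all libraries and 1.07 ± 0.36 (adjusted p = 0.0369) without them. In LT-HSC, Fcgr3 was 1.2, 0.22 and 2.09 FPKM in replicates 1 to 3 and 87.14 and 38.43 FPKM in replicates 4 and 5. In ST-HSC the corresponding values were 6.17, 5.63 and 9.5, then 47.19 and 21.25 FPKM. Without those libraries, LT-HSC minus ST-HSC was -1.97 for Fcgr3 and -1.22 for Fcgr2b (adjusted p = 0.00998 and 0.023), and with them the differences were -0.84 and -0.71 (adjusted p = 0.577 and 0.351). Leaving out LT-HSC replicate 4 alone brought Fcgr2b past the threshold as well.

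Itgam was to be excluded by the lineage mix. It was 1.92, 3.27 and 2.48 FPKM in LT-HSC replicates 1 to 3, and 232.02 and 74.23 FPKM in replicates 4 and 5. ST-HSC held 4.87, 4.69 and 6.95, then 100.94 and 30.91 FPKM. The high values are those of the libraries with high granulocyte sums, and the part of those cells in the Itgam values was not tested. MPP ran from 10.82 to 16.24 FPKM, CMP held 9.46, 12.78, 8.59, 8.74 and 6.3, GMP 28.73, 15.49, 21.74, 17.56 and 17.9 and MEP 4.09, 3.92, 3.26 and 12.16 FPKM. With all libraries Itgam was called in none of the 6 normal comparisons. Without the 4 libraries 3 differences were called, -1.06 for CMP minus GMP, 1.77 for GMP minus MEP and -1.15 for ST-HSC minus MPP (adjusted p = 0.000667, 1.47e-06 and 0.00263). The last had the other sign, 0.11, with all libraries. The GMP and MEP difference also passed without LT-HSC replicate 4 alone.

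Counted over the 9 markers, 3 were called between LT-HSC and ST-HSC, 1 higher and 2 lower in LT-HSC, where 2.26% of the 12367 genes tested were called, 0.768% higher and 1.5% lower. Between ST-HSC and MPP 1 marker was higher and 1 lower (3.44% of genes called, 1.31% higher and 2.13% lower). Between MPP and CMP 2 were higher and 1 lower (4.32%, 2.83% and 1.49%), and between CMP and GMP 1 was higher and 2 lower (11.2%, 7.94% and 3.31%). Between CMP and MEP 4 were higher and none lower (11.8%, 9.49% and 2.34%), and between GMP and MEP 5 were higher and 1 lower (20.5%, 11.2% and 9.33%). The counts hold the genes on which the gates of a pair differ, so they are read as a description of the sort. The spread of Itgam and Fcgr3 within LT-HSC and ST-HSC sets the error of all 6 comparisons, since they share 1 fit.

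**Figure D2:**
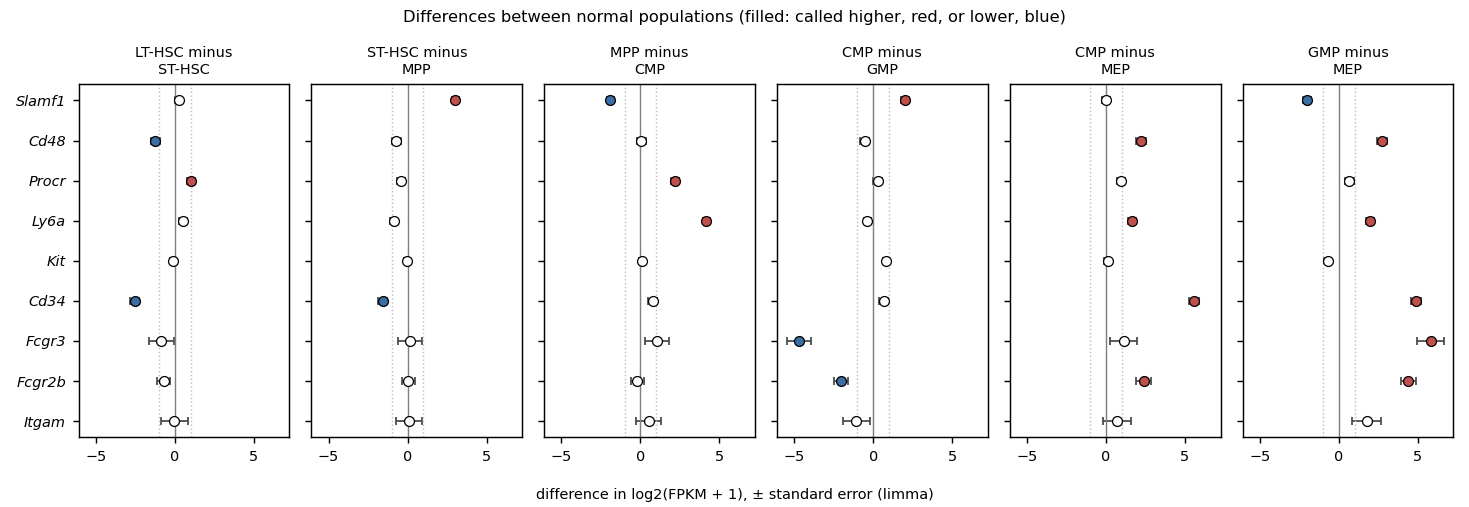
The difference in log2(FPKM + 1) of each marker between neighbouring normal populations is drawn as a point with its standard error from limma, filled where called. Cd34 has the largest difference between CMP and MEP, 5.58, and Fcgr3 between CMP and GMP, -4.70.

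The next comparison set each leukaemia group beside the normal population in which it was started. The normal cells of all 4 pairs had been sorted as lineage-negative c-Kit+ CD34+, whereas the leukaemia cells were sorted on GFP alone. Changes of gated markers, and the counts of markers called, therefore include what the gates selected. Kit and Cd34 fell and Itgam rose in all 4 pairs. Both Fc receptors rose in the leukaemias begun in ST-HSC, MPP and CMP, while Fcgr3 in GMP:MA9 differed from its already high normal level by 0.15, which did not pass the test. Ly6a and Procr fell from ST-HSC and MPP, and Slamf1 fell from ST-HSC and CMP. Cd48 was the 1 marker called in none of the 4 pairs. Of 9 markers, 8 were called for STHSC:MA9, 7 for MPP:MA9, 6 for CMP:MA9 and 3 for GMP:MA9, where 24.2%, 27.1%, 27.8% and 22.4% of the 12600 genes tested were called. By direction, 3, 3, 3 and 1 markers rose, against 12.3%, 13.5%, 13% and 13.5% of genes, and 5, 4, 3 and 2 fell, against 11.9%, 13.6%, 14.8% and 8.87%. The median log2 change of all genes was -0.16 for CMP:MA9 minus CMP and between -0.09 and 0.00 for the other 3 pairs.

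Kit had the largest log2 change of the 9 in each of the 4 pairs. It was 0.58, 2.97 and 1.19 FPKM in STHSC:MA9, and 0.37, 0.38, 0.6 and 2.06 FPKM in CMP:MA9. In MPP:MA9 the lowest, median and highest values were 0.59, 0.80 and 2.04 FPKM, and in GMP:MA9 0.33, 2.77 and 5.94 FPKM. Every leukaemia lay below every normal sample, the lowest of which was 43.18 FPKM. The log2 change of Kit was -5.48 ± 0.37 in STHSC:MA9, -5.82 ± 0.29 in MPP:MA9, -5.87 ± 0.34 in CMP:MA9 and -4.17 ± 0.30 in GMP:MA9 (adjusted p = 6.19e-15, 5.17e-19, 1.05e-16 and 1.25e-13). The change differed among origins (F test of the interaction, adjusted p = 0.00506), and the normal GMP level was itself lower than that of the other 3 starting cells.

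Itgam was 284.98, 248.51 and 272.98 FPKM in STHSC:MA9 and 182.65, 217.57, 269.05 and 205.45 FPKM in CMP:MA9. The lowest, median and highest values were 215, 297 and 536 FPKM in MPP:MA9 and 154, 225 and 315 FPKM in GMP:MA9. Apart from LT-HSC and ST-HSC replicates 4 and 5, no normal sample exceeded 28.73 FPKM. The rise was 4.13 ± 0.50, 4.42 ± 0.39, 4.45 ± 0.46 and 3.45 ± 0.41 in the order STHSC, MPP, CMP and GMP of the starting cell (adjusted p = 1.24e-08, 4.88e-12, 2.68e-10 and 1.21e-08). Without ST-HSC replicates 4 and 5 the first of these was 5.39. The granulocyte sum ran from 19063 to 46409 in STHSC:MA9, from 1058 to 52397 in MPP:MA9, from 1576 to 30861 in CMP:MA9 and from 1312 to 14621 in GMP:MA9, and from 1712 to 11389 in normal GMP. These ranges overlap between GMP and 3 of the leukaemia groups, whereas Itgam did not overlap between GMP and any leukaemia group, and the part of granulocytes in the Itgam values was not tested.

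Fcgr3 was 227.77, 230.27 and 211.48 FPKM in STHSC:MA9 and 182.38, 191.89, 195.76 and 179.44 FPKM in CMP:MA9, and its median was 192 FPKM in MPP:MA9 and 180 FPKM in GMP:MA9. It rose by 4.00 ± 0.41, 3.88 ± 0.32 and 4.98 ± 0.38 from ST-HSC, MPP and CMP (adjusted p = 3.43e-10, 9.08e-13 and 1.67e-13), and from GMP the difference was 0.15 (adjusted p = 0.735). Fcgr2b was 64.02, 53.19 and 53.25 FPKM in STHSC:MA9 and 53.78, 54.75, 34.59 and 52.5 FPKM in CMP:MA9, with medians of 53.6 in MPP:MA9 and 70.3 FPKM in GMP:MA9. It rose by 2.60 ± 0.29, 2.70 ± 0.23 and 2.23 ± 0.26 from ST-HSC, MPP and CMP (adjusted p = 1.75e-09, 1.09e-12 and 5.45e-09). From GMP the difference was 0.74 ± 0.24 (adjusted p = 0.00769), under the fold threshold although all 6 GMP:MA9 samples lay above all 5 GMP samples. Without ST-HSC replicates 4 and 5 the change from ST-HSC was 4.82 for Fcgr3 and 3.05 for Fcgr2b (adjusted p = 4.53e-14 and 3.8e-11). The change differed among the 4 origins for both receptors (adjusted p = 4.2e-09 for Fcgr3 and 4.32e-05 for Fcgr2b).

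Cd34 ran from 3.64 to 64.99 FPKM in the leukaemias, with a median of 33.35 FPKM. It was 9.72, 19.29 and 10.23 FPKM in STHSC:MA9 and 43.07, 41.26, 24.43 and 39.22 FPKM in CMP:MA9, with a lowest, median and highest value of 4.89, 20.2 and 65.0 FPKM in MPP:MA9 and 3.64, 42.5 and 53.2 FPKM in GMP:MA9. Each group lay below its normal cell with no overlap. In the same order the log2 change of Cd34 was -2.50 ± 0.56, -3.37 ± 0.44, -1.83 ± 0.51 and -1.46 ± 0.46 (adjusted p = 0.000337, 3.6e-08, 0.00259 and 0.00749). Without GMP:MA9 replicate 2, at 3.64 FPKM, the last of these was -0.91 and under the fold threshold.

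Ly6a was 7.02, 1.61 and 4.19 FPKM in STHSC:MA9 and 2.85, 5.32, 2.09 and 2.23 FPKM in CMP:MA9. In MPP:MA9 and GMP:MA9 a single sample, replicate 2 in each, stood at 17.17 and 29.32 FPKM, and the medians were 4.05 and 2.32 FPKM. The log2 change of Ly6a was -3.71 ± 0.54 from ST-HSC and -4.27 ± 0.42 from MPP (adjusted p = 4.38e-07 and 6.86e-11). Against CMP and GMP the differences were -0.70 and -0.88 (adjusted p = 0.223 and 0.0889), and without GMP:MA9 replicate 2 the last was -1.43 and passed. Procr did not exceed 0.47 FPKM in any of the 19 leukaemias, with a median of 0. Its log2 change was -2.72 ± 0.22 from ST-HSC and -2.94 ± 0.18 from MPP (adjusted p = 1.33e-12 and 1e-16). From the low levels of CMP and GMP the differences of Procr were -0.82 and -0.64, under the fold threshold. With a pseudocount of 0.1 they were -2.50 and -2.49, and both were called (adjusted p = 5.5e-05 and 1.53e-05).

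Slamf1 did not exceed 0.08 FPKM in any leukaemia. STHSC:MA9 held 0, 0.08 and 0 FPKM, a change of -3.21 ± 0.20 from ST-HSC (adjusted p = 8.84e-16), and CMP:MA9 was listed at 0 in all 4 samples against 2.19 to 3.99 FPKM in CMP (adjusted p = 3.2e-12). MPP and GMP held little Slamf1 to begin with, and neither leukaemia differed from them past the threshold. For MPP:MA9 minus MPP the difference in Slamf1 was -0.21 (adjusted p = 0.254), and with a pseudocount of 0.1 it was -1.23 and called (adjusted p = 0.0027). Cd48 was 87.99, 93.45 and 100.03 FPKM in STHSC:MA9 and 173.09, 153.89, 95.08 and 89.91 FPKM in CMP:MA9, with ranges of 62.58 to 188.81 FPKM in MPP:MA9 and 104.07 to 235.85 FPKM in GMP:MA9. The differences from the normal cell were 0.62 ± 0.27, 0.28, 0.36 and 0.26 (adjusted p = 0.0612, 0.27, 0.214 and 0.345), and all STHSC:MA9 samples lay above all ST-HSC samples. The change with leukaemia differed among origins for Slamf1, Procr and Ly6a (adjusted p = 1.66e-12, 1.3e-09 and 1.41e-05) and did not pass for Cd48, Cd34 and Itgam (0.790, 0.0687 and 0.400), so 6 of 9 markers passed where 38% of genes did. The normal cells of the 4 origins had been sorted apart on CD150, Sca-1 and Fc gamma receptor. For Slamf1, Ly6a, Fcgr3 and Fcgr2b the test therefore also measures those gates. Slamf1 and Procr were near 0 in all leukaemias, so their changes mainly restate the level of the normal cell.

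**Figure D3:**
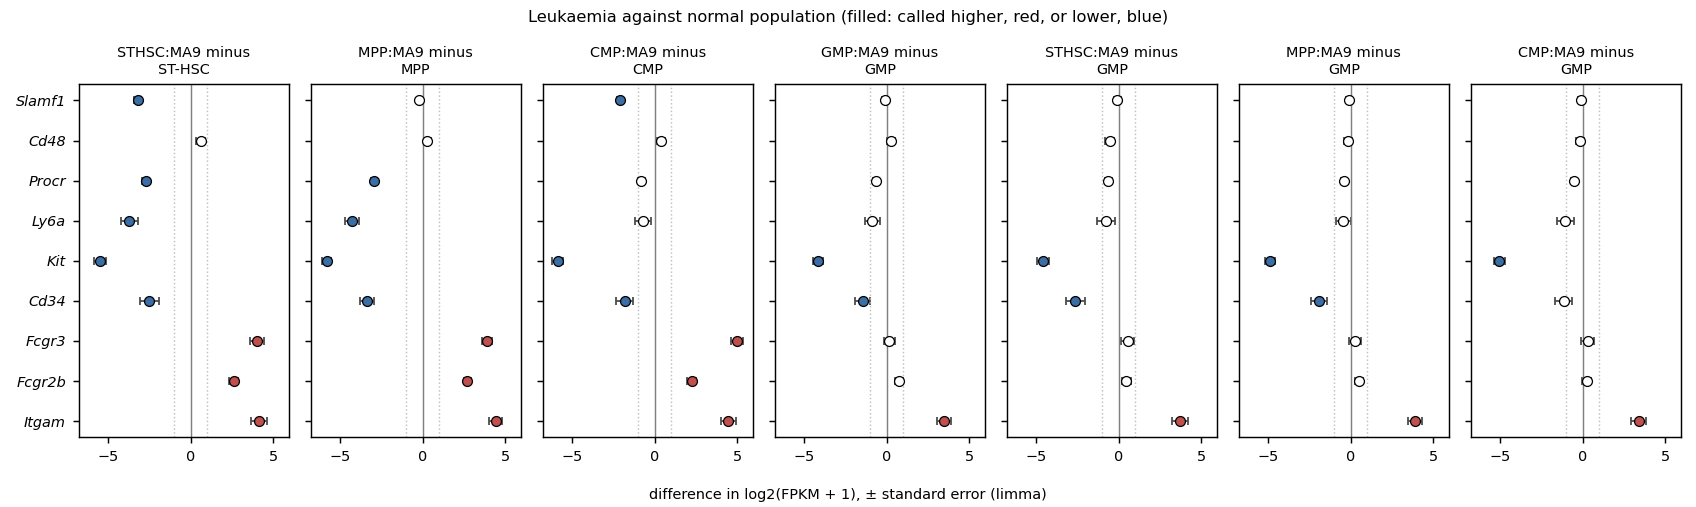
The difference in log2(FPKM + 1) between each leukaemia group and a normal population is drawn as a point with its standard error from limma, filled where called. Kit lies furthest to the left in each panel of a leukaemia and its own normal cell, from -5.87 to -4.17, and Itgam lies between 3.45 and 4.45 in these panels.

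GMP are the normal population gated on Fc gamma receptor, and the other 3 leukaemia groups were also set beside them, which shares the 5 GMP samples between comparisons. Itgam rose by 3.69 ± 0.50 in STHSC:MA9, by 3.87 ± 0.41 in MPP:MA9 and by 3.39 ± 0.46 in CMP:MA9 (adjusted p = 2.74e-07, 5.9e-10 and 1.38e-07). The changes of Kit were -4.60 ± 0.37, -4.89 ± 0.30 and -5.05 ± 0.34 (adjusted p = 3.04e-12, 1.02e-15 and 1.51e-14). Those of Cd34 were -2.63 ± 0.56 in STHSC:MA9 and -1.92 ± 0.46 in MPP:MA9 (adjusted p = 0.000248 and 0.000557), and the difference of CMP:MA9, -1.16 ± 0.51, did not pass (adjusted p = 0.0545). That last value passed without MPP:MA9 replicate 2, 4 or 6 or GMP:MA9 replicate 2, samples that enter the shared error only. In a fit of CMP:MA9 and GMP alone it also passed, at -1.16 ± 0.17 (adjusted p = 0.000137), and the groups did not overlap in Cd34. Ly6a in CMP:MA9 differed from GMP by -1.06 ± 0.49 (adjusted p = 0.0671), and passed without CMP:MA9 replicate 2, MPP:MA9 replicate 2, or GMP:MA9 replicate 2 or 3 (adjusted p from 0.0132 to 0.0486). It passed as well in the fit of CMP:MA9 and GMP alone (-1.06 ± 0.24, adjusted p = 0.00263). Fcgr3 differed from GMP by 0.53, 0.25 and 0.28 and Fcgr2b by 0.45, 0.50 and 0.22, none of which passed (adjusted p from 0.0679 to 0.549). Even so, Fcgr3 in STHSC:MA9, at least 211.48 FPKM, lay above all GMP samples, at most 189.54 FPKM. Fcgr2b was at least 53.19 FPKM in STHSC:MA9 and 49.81 FPKM in MPP:MA9, against at most 43.26 FPKM in GMP. Fcgr3 in MPP:MA9 and both receptors in CMP:MA9 overlapped GMP. In all, 3, 3 and 2 of 9 markers were called, against 18.9%, 25.6% and 23% of genes. In each comparison 1 marker rose, against 11.6%, 16.3% and 14.2% of genes, and 2, 2 and 1 fell, against 7.26%, 9.29% and 8.72%. Beside this, the sum of the 5 GMP genes was 317 to 3211 in the leukaemias against 17316 to 25937 in GMP, and the part of the sampled cell mix in these differences was not tested.

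Between the leukaemia groups, 7 markers were abundant enough for testing, Slamf1 and Procr being too low. In 6 pairs of groups limma called 0 of 7 markers each time, where 2.88% (STHSC:MA9 and MPP:MA9), 0.363% (STHSC:MA9 and CMP:MA9), 0.536% (STHSC:MA9 and GMP:MA9), 0.115% (MPP:MA9 and CMP:MA9), 2.23% (MPP:MA9 and GMP:MA9) and 0.206% (CMP:MA9 and GMP:MA9) of 12128 genes were called, and 5 of the 42 tests had an unadjusted p under 0.05. These were Fcgr3 and Cd48 between STHSC:MA9 and GMP:MA9, Itgam between MPP:MA9 and both CMP:MA9 and GMP:MA9, and Fcgr2b between CMP:MA9 and GMP:MA9. The last was -0.52 ± 0.16 (adjusted p = 0.125). An F test over the 4 groups called 0 of 7 markers, against 13.3% of genes, and Fcgr2b alone had an unadjusted p under 0.05 (adjusted p = 0.122). Cd34 in STHSC:MA9, all at or below 19.29 FPKM, lay below all 4 CMP:MA9 samples, with a difference of -1.46 ± 0.77 (adjusted p = 0.371).

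The balance of the 2 Fc receptors was a further way in which populations differed. The ratio of Fcgr3 to Fcgr2b was 0.551 ± 0.214 in CMP (SD, n = 5), where Fcgr2b was the more abundant per length in every sample (0.27 to 0.785). The ratio was also below 1 in LT-HSC replicates 1 to 3, at 0.543, 0.279 and 0.579, but 3.88 and 4.03 in LT-HSC replicates 4 and 5, the libraries rich in granulocyte transcripts. It lay on both sides of 1 in ST-HSC (0.883 to 3.01), MPP (0.568 to 2.35) and MEP (0.584 to 3.85). The ratio was 3.78 ± 0.693 in GMP, with a range of 3.00 to 4.88. It was 3.95 ± 0.386 in STHSC:MA9, 3.18 ± 0.6 in MPP:MA9, 3.99 ± 1.11 in CMP:MA9 and 2.5 ± 0.543 in GMP:MA9, and Fcgr3 was the more abundant per length in each of the 19 samples. With both genes summed into 1 value before the fit, that sum was lower in CMP than in GMP (-3.66 ± 0.69, adjusted p = 0.000125) and rose by 3.62 ± 0.34, 3.53 ± 0.27 and 3.93 ± 0.31 from ST-HSC, MPP and CMP (adjusted p = 4.4e-11, 8.46e-14 and 5.74e-13). From GMP the sum differed by 0.30 ± 0.28 (adjusted p = 0.373).

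**Figure D4:**
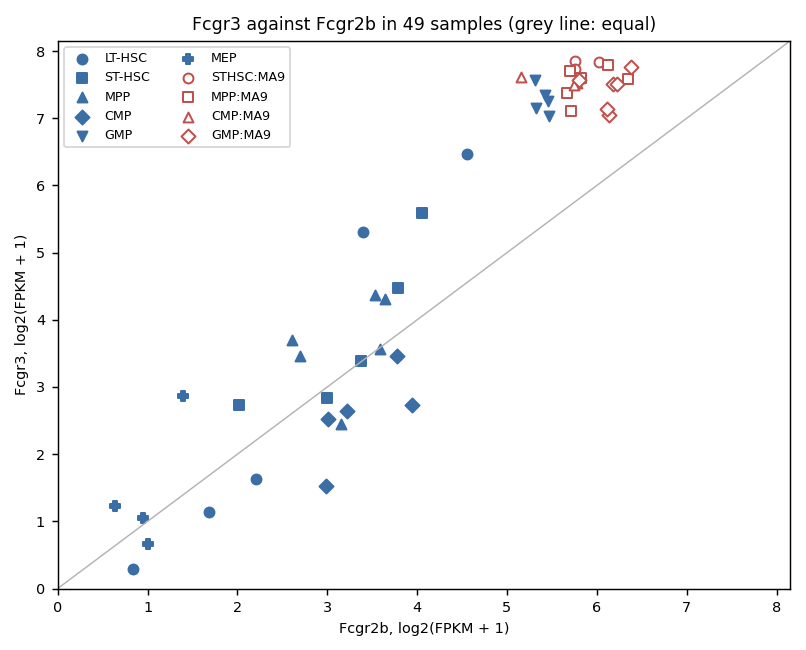
Fcgr3 is plotted against Fcgr2b, both as log2(FPKM + 1), with a point per sample for 49 samples and a grey line of equal values. All 5 CMP samples lie below the line and all 5 GMP and 19 leukaemia samples above it.

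In all, 4 relations between markers were computed across the 19 leukaemias on log2(FPKM + 1). Cd34 and Itgam went in opposite directions, with Pearson's r = -0.725 (permutation p = 0.00029, adjusted 0.00116) and Spearman's rho = -0.698 (permutation p = 0.00135, adjusted 0.0054). Without the 2 samples farthest from the median in Cd34, GMP:MA9 replicate 2 and MPP:MA9 replicate 2, r was -0.596 (permutation p = 0.0123). Within groups r was -0.77 in the 6 MPP:MA9 samples (exact permutation p = 0.0625) and -0.706 in the 6 GMP:MA9 samples (exact permutation p = 0.0986), so the sign was the same in both but neither passed alone. For the correlation of Cd34 with Itgam among leukaemias, r was -0.739 once the mean of the origin group was taken from each value. Granulocyte sums ran from 1058 to 52397 among these leukaemias, both in MPP:MA9. The part of the sampled cell mix in this correlation was not tested. Kit with Itgam gave r = 0.0273 and rho = 0.203 (permutation p = 0.911 and 0.405), and r was 0.404 without GMP:MA9 replicates 1 and 6 (permutation p = 0.109). Kit with Cd34 gave r = -0.202 and rho = -0.28 (permutation p = 0.41 and 0.245), and r was -0.567 without the same 2 samples (permutation p = 0.0183), so this relation moved with them. Fcgr3 with Fcgr2b gave r = -0.0406 and rho = 0.0105 (permutation p = 0.868 and 0.968), and r was -0.0242 without GMP:MA9 replicate 2 and MPP:MA9 replicate 6 (permutation p = 0.925).

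**Figure D5:**
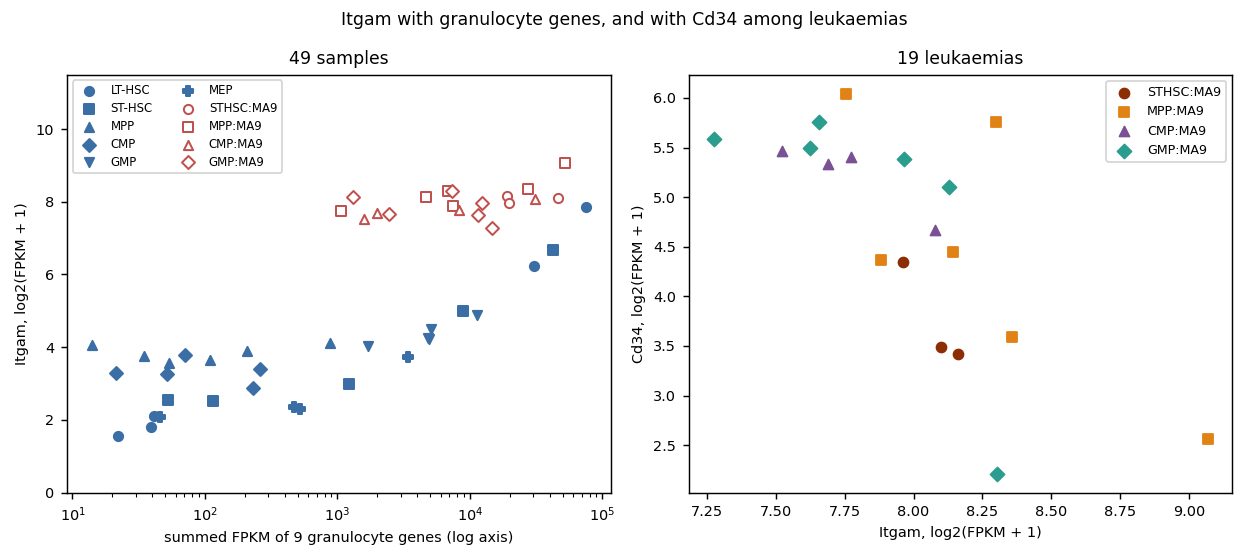
Left, Itgam as log2(FPKM + 1) against the summed FPKM of 9 granulocyte genes on a log axis in 49 samples; right, Cd34 against Itgam, both as log2(FPKM + 1), in 19 leukaemias. LT-HSC and ST-HSC replicates 4 and 5 lie at granulocyte sums of 8782 to 74854, and among leukaemias Cd34 is lower where Itgam is higher (r = -0.725).

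Genes that act with the markers were followed in the same fits, from lists that name partners and family members, several of which hold the markers themselves. The counts that follow compare leukaemias with their normal cells in the order STHSC, MPP, CMP and GMP, and are to be read against 12.3%, 13.5%, 13% and 13.5% of all genes called higher, 11.9%, 13.6%, 14.8% and 8.87% called lower, and all-gene medians of -0.04, -0.09, -0.16 and 0.00. Of the beta2 integrins and their ligands, Itgb2, the chain that pairs with Itgam, rose by 3.31 ± 0.34, 4.35 ± 0.27, 4.19 ± 0.32 and 2.98 ± 0.29 against the normal cell, in this order (adjusted p = 4.94e-10, 4.36e-16, 1.62e-13 and 9.18e-11). In that list, with Itgam among them, 3, 3, 4 and 5 of 5 tested genes rose and none fell, with medians of 1.19, 1.56, 1.57 and 2.31. Of 6 Fc receptor genes tested, which include Fcgr3 and Fcgr2b, 5, 5, 5 and 3 rose and 1, 1, 0 and 1 fell. Fcgr4, an activating IgG receptor of myeloid cells, rose by 4.13, 4.52, 4.98 and 2.57, and Fcer1g, the signalling chain that Fcgr3 needs at the surface, by 2.83, 3.84, 3.00 and 1.72. Fcer1a, the IgE receptor chain of mast cells and basophils, fell, with changes of -2.87 in STHSC:MA9, -2.79 in MPP:MA9 and -2.64 in GMP:MA9. The medians of the Fc receptor list were 2.72, 3.27, 2.94 and 1.23.

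The Kit list, with its ligand, adaptors and related receptors, did not follow Kit. Of 7 genes tested 4 rose in each pair, and 2, 3, 1 and 1 fell, Kit among them. Lyn, a Src family kinase, rose by 1.97 ± 0.17, 2.43 ± 0.14, 2.43 ± 0.16 and 2.22 ± 0.14 (adjusted p = 1.08e-11, 2.43e-17, 4.43e-15 and 6.4e-15). Csf1r, the receptor of macrophage colony-stimulating factor, rose by 3.12, 3.48 and 2.19 in STHSC:MA9, MPP:MA9 and CMP:MA9, and Flt3, a receptor of early progenitors, rose by 3.16 ± 0.48 from GMP (adjusted p = 9.84e-07). Of 8 SLAM family genes and adaptors tested, 1, 3, 4 and 4 rose and 1, 0, 1 and 0 fell, the fall being that of Slamf1 each time. Cd244, the receptor of Cd48, rose by 1.72, 1.44, 2.59 and 2.96.

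Of 24 stem and progenitor surface genes outside the 9 markers, 11, 11, 7 and 6 fell and 5, 5, 6 and 6 rose, with median changes of -0.87, -0.86, -0.04 and -0.33. Itga2b (CD41) fell in STHSC:MA9, MPP:MA9 and CMP:MA9 with changes of -5.71, -3.09 and -4.26. Cd27, a TNF receptor family member, fell in all 4 with changes of -4.11, -4.66, -3.80 and -1.62, and Eng, a TGF beta co-receptor, with changes of -3.39, -3.45, -4.11 and -1.96. Emcn, a sialomucin like Cd34, fell by 2.85 from ST-HSC and was listed at 0 in MPP:MA9 and CMP:MA9. In the protein C pathway, of 4 genes tested, Procr among them, 3, 3, 2 and 2 fell and 1 rose in each pair. Thbd, thrombomodulin, the cofactor of protein C activation, rose by 1.31, 3.24, 2.78 and 1.83, and Tfpi, an inhibitor of tissue factor, fell with changes of -1.94, -2.57, -2.44 and -2.05.

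The Ly6 family did not move as 1 block. Of 7 genes tested, Ly6a among them, 2, 4, 3 and 1 rose and 2, 2, 0 and 2 fell. Ly6c2, a marker of monocytes and their precursors, rose by 2.49, 3.63 and 3.28 from ST-HSC, MPP and CMP and fell by 1.06 from GMP (adjusted p = 3.57e-05, 1.42e-10, 5.28e-08 and 0.0198). Ly6c2 shares sequence with its neighbour Ly6c1, and the division of reads between them is uncertain. Of 6 lineage antigens of the sort that were tested, 4, 5, 4 and 2 rose and 1, 0, 1 and 2 fell, Itgam among the risers in each pair. Ptprc, the leukocyte antigen whose B220 form is in the lineage mix, rose by 1.56, 1.67, 2.15 and 2.24.

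Some of the same lists were counted among normal cells. Between CMP and GMP, where 7.94% of all genes were called higher in CMP and 3.31% lower, 4 of 7 Fc receptor genes were lower in CMP, Fcer1a (-1.90) and Fcgr4 (-1.80) beside the 2 markers, and 6 of 24 stem and progenitor surface genes were higher in CMP and 5 lower. Flt3 was higher by 3.37 ± 0.27, and CMP minus GMP was -3.51 ± 0.47 for Prom1 and -3.41 ± 0.34 for Vcam1 (adjusted p = 1.33e-10, 1.2e-06 and 8.06e-09). Between CMP and MEP 12 of 24 were higher in CMP, against 9.49% of all genes, with Flt3, Cd27 and Csf1r at 3.92, 3.74 and 3.66. Between LT-HSC and ST-HSC 6 of 24 were lower in LT-HSC, against 1.5% of all genes, and none higher, with Flt3 at -2.27, Itga2b at -1.33 and Cd27 at -1.25. Between MPP and CMP 9 of 24 were higher in MPP and 1, Itga2b, was lower (-1.35 ± 0.30, adjusted p = 0.0026), against 2.83% and 1.49% of all genes.

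The genes whose pattern was most like that of each marker were named by the correlation of log2 group means over the 10 groups among 8652 genes, as a description. For Kit they were Nedd4, Dctd and Lrrc1 (r = 0.9957, 0.9945 and 0.9926), and for Itgam Slc16a3, Evi2a and Cmtm6 (0.9951, 0.9947 and 0.9933). For Fcgr3 they were Chst13, Dram1 and Cldn15 (0.9901, 0.9895 and 0.9892), and for Fcgr2b Rassf4, Clec12a and Ero1lb (0.9934, 0.9901 and 0.9889). Procr was followed by Slc16a9, Fgd5 and Klhl4 (0.9913, 0.9836 and 0.9825), and Slamf1 by Reep2, Gm8145 and Plxnc1 (0.9918, 0.979 and 0.9739). Ly6a was nearest to Irgm2, Procr and Trim30c (0.976, 0.9724 and 0.9714), so that Procr was the only marker among another marker's 3 nearest genes. Cd34 was nearest to Sh2d5, Slc35b4 and Kif17 (0.9679, 0.9673 and 0.9621), and Cd48 to BC035044 (0.976). The 10 points of each r share libraries across genes.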

How the data were processed

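The authors deposited FPKM values, estimated with RSEM from amplified cDNA libraries (per the labels, on mm9). The aligner, annotation and RSEM version are not given in the sources used here, and the test that the study ran on read counts was not used. The table has 68 value columns, of which 49 carry the name of a labelled sample and the other 19 were left out. Symbols for 33068 of 38253 genes and all positions came from GENCODE M1 on NCBIM37, 1-based. Read totals were unknown, so relative depth was estimated from the step size of low FPKM values (98.7% of sample pairs gave an estimate), and no counting interval was computed. No 2 samples held identical values.

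Within each fit, genes averaging 1 FPKM or more were tested on log2(FPKM + 1), a scale that understates changes of low genes. Tests used limma 3.58.1 in R 4.3.3 (mean-variance trend, two-sided, Benjamini-Hochberg over all genes) in 3 fits: the 30 normal samples, the leukaemias with their normal groups, and the 19 leukaemias. Calls needed an adjusted p under 0.05 and an absolute log2 change above 1. Permutation tests were two-sided, with 100000 permutations over the 19 leukaemias and exact within groups of 6. The remaining steps ran in Python 3.11.15 (numpy 2.4.6, pandas 2.3.3, scipy 1.17.1 and matplotlib 3.10.9). Functions were tested on simulated data.

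The markers, lists and tests were chosen with earlier results of these data known. From a list, at most 4 genes per comparison are named, those of largest absolute change among called genes whose groups did not overlap, and for each marker the 3 genes with the highest correlation. A few genes that these rules name are not reported here. Per the study's methods every sample is a separate mouse, and the labels do not tie samples to experiments. Deviations of same-numbered LT-HSC and ST-HSC samples from their group means had r above 0.1 in all 5 pairs (0.142 to 0.683). No other comparison did, though every r was positive for CMP and GMP (0.048 to 0.290) and for CMP:MA9 and CMP (0.048 to 0.107). Numbers were taken to pair only LT-HSC with ST-HSC. Replicates 4 and 5 of both share high granulocyte sums, and the part of these in r was not tested. Results given are from fits without pairing, and no paired test of these groups alone was run. Alternatives were a pseudocount of 0.1, no filter, median-ratio scaling, fits of only the groups compared, the replicate block, no fold threshold, a GC and length correction with and without the block, Fcgr3 and Fcgr2b summed, leaving out each sample, and, chosen after seeing the data, leaving out LT-HSC and ST-HSC replicates 4 and 5.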

Additional observations from a re-analysis of the deposited data

Results flagged for a closer look

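Of 79 sets of 1 marker in 1 group of 4 to 6 samples, 11 held a sample far from the others by Dixon's test, and chance alone gives about 1 in 20. In the normal populations these were Slamf1 in CMP replicate 4 (2.19 FPKM), Ly6a in ST-HSC replicate 3 (47.1 FPKM), Ly6a in MEP replicate 2 (0.19 FPKM) and Itgam in MEP replicate 4 (12.2 FPKM), the MEP library with the highest granulocyte sum, 3411. In the leukaemias, GMP:MA9 replicate 2 stood out in Cd34 (3.64 FPKM, lowest of its group) and in Slamf1 (0.05 FPKM against 0 in the other samples), and MPP:MA9 replicate 2 in Kit (2.04 FPKM, highest of its group) and Ly6a (17.2 FPKM). CMP:MA9 replicate 3 stood out as the lowest of its group in both Cd34 (24.4 FPKM) and Fcgr2b (34.6 FPKM), and GMP:MA9 replicate 4 in Procr (0.17 FPKM against 0). The granulocyte sum was 30861 in CMP:MA9 replicate 3, against 1576, 8210.5 and 2003 in the rest of its group. It was 52397 in MPP:MA9 replicate 2, the highest of its group, and 7289.5 in GMP:MA9 replicate 2, inside the range of its group. The part of the cell mix in these values was not tested. The values of Slamf1 and Procr in leukaemias are too near 0 for a level to be read from them.

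For 6 markers the difference between leukaemia and normal cell varied with the starting cell, by limma's F test of the interaction over 4 origins. They were Slamf1 (adjusted p = 1.66e-12), Fcgr3 (4.2e-09), Procr (1.3e-09), Ly6a (1.41e-05), Fcgr2b (4.32e-05) and Kit (0.00506), where 38% of all genes passed. Slamf1 and Procr did not exceed 0.08 and 0.47 FPKM in any leukaemia, so their changes mainly restate the level of the normal cell. The starting cells had been sorted apart on CD150, Sca-1 and Fc gamma receptor. For Slamf1, Ly6a, Fcgr3 and Fcgr2b the test therefore also measures those gates, as said above. Among the same 4 leukaemia groups none of the 7 markers tested passed the F test, where 13.3% of 12128 genes did. Slamf1 and Procr were too low to be tested there.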

How the results depend on the processing

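Over 159 pairs of a marker and a comparison, 53 calls were made, and 50 of them were kept whichever single sample was left out. The 3 calls lost at least once were Cd48 and Procr between LT-HSC and ST-HSC and Cd34 between GMP:MA9 and GMP. The number of markers called between LT-HSC and ST-HSC, 3, became 1 in a fit of only these groups and 5 without replicates 4 and 5 of both. It ranged from 1 to 4 on leaving out each sample. Without replicates 4 and 5 of both, calls over all genes also rose, from 280 of 12367 to 552 of 12262. For GMP:MA9 and GMP the number, 3, became 5 with a pseudocount of 0.1 and 5 with no fold threshold. Calls over all 12600 genes rose there too, from 2820 to 3691 and 7359. For CMP:MA9 and GMP the number, 2, became 4 in a fit of only these groups, with a range of 2 to 4 on leaving out each sample. All-gene counts were not kept for fits of only the groups compared or for single samples left out. Itgam between ST-HSC and MPP reversed, from 0.11 to -1.15, without the 4 libraries rich in granulocyte transcripts. A pseudocount of 0.1 kept 52 of the 53 calls and gained 9, no fold threshold gained 11, and fits of only the groups compared kept 51 and gained 5. No filter and the GC and length correction, with or without the block, kept all 53 and gained 0. Median-ratio scaling kept 53 and gained 1, Cd34 between CMP:MA9 and GMP.

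With the replicate block all 53 calls were kept and 1 was gained, Ly6a between CMP:MA9 and GMP (-1.13, adjusted p = 0.0401), where the numbers were not taken to pair the samples. The block changed no other call. The number of markers whose change differed among starting cells, 6, was 5 with the Fc receptors summed into 1 and 7 without ST-HSC replicates 4 and 5, and no alternative called a marker in the F test among the leukaemia groups. Depth limits Slamf1 and Procr in leukaemias, where values of 0 and of a few hundredths cannot be told apart.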

Other observations

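Beside the surface markers, lists of cell type genes were summed in each sample. Whether these transcripts in the leukaemias came from the leukaemia cells or from other cells was not tested. Summed FPKM of monocyte and macrophage genes ran from 272 to 930 in the 19 leukaemias, against 253 to 429 in normal GMP and 3.12 to 264 in the other normal populations. Megakaryocyte genes, which include Itga2b, summed to between 1.14 and 12.8 in the leukaemias, and to at least 6.58 in every normal sample. Erythroid genes summed to between 14.2 and 756. Granulocyte genes summed to between 1058 and 52397 among the 6 MPP:MA9 samples.

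The thrombin receptor gene F2r, a partner in protein C signalling, fell, with a change of -6.09 ± 0.31 from ST-HSC to STHSC:MA9 and of -3.37 ± 0.25 from MPP to MPP:MA9 (limma, adjusted p = 4.51e-18 and 2.78e-14). In CMP:MA9 it was listed at 0 in all samples, against a mean of 42.7 FPKM in CMP. Among normal cells it was higher in CMP than in GMP by 4.20 ± 0.27 (adjusted p = 4.29e-12).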
